A study of Mus musculus with 2 samples.

Results

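The genes described here are 10 chemokine ligands, measured in cultured mouse cells that the study calls cavernous endothelial cells (MCECs). Of these genes, 9 are of the CXC family (Cxcl1, Cxcl2, Cxcl5, Cxcl9, Cxcl10, Cxcl11, Cxcl12, Cxcl14 and Cxcl16) and the other is Cx3cl1. All 10 were taken by symbol from the 23183 symbols of the expression files. The set was put together with results of these libraries known, so its counts and values are a description. RNA was sequenced from 1 library per condition. Both cultures were in high glucose (HG, 30 mM) and one was given HBS, the buffer in which the vesicles are suspended (HG+HBS), the other PC-NVs (HG+PC-NVs). PC-NVs, nanovesicles extruded from cultured mouse cavernous pericytes, were added at 1 µg/mL. By the study's methods, the cells had 72 hours of high glucose and 24 hours of PC-NVs, while the labels give 5 days of glucose. The figure legend for these data instead gives a PC-NV treatment as long as the glucose exposure of the methods. The methods also describe 24 hours of serum starvation before the glucose. MCECs are primary cells that grow out of penile tissue and were used at early passages, and the study worked with adult male C57BL/6J mice. Which animals or passages went into either culture is not given in the sources used here.

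Chemokines are small secreted proteins that guide leukocytes along a gradient, and endothelial and stromal cells release them at sites of inflammation. Cxcl1, Cxcl2 and Cxcl5 carry the ELR motif ahead of their cysteines and attract neutrophils through the receptor Cxcr2, and their genes are known targets of NF-kB, the transcription factor of the inflammatory response. Cxcl9, Cxcl10 and Cxcl11 are induced by interferon and attract activated T cells through Cxcr3. Cxcl12 is made constitutively by stromal cells, holds Cxcr4-bearing cells in place and supports vessel growth. Cxcl14 is expressed in many resting tissues. Cxcl16 and Cx3cl1 are made as transmembrane proteins on a mucin-like stalk and are released by the proteases Adam10 and Adam17.

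The genes lie in several places of the mouse genome (GRCm38, GENCODE M21). On chromosome 5, Cxcl5 (90759360 to 90761624), Cxcl1 (90891241 to 90893115) and Cxcl2 (90903871 to 90905938) are on the forward strand, with 129.6 kb between Cxcl5 and Cxcl1 and 10.8 kb between Cxcl1 and Cxcl2. Further along, Cxcl9 (92321347 to 92328079), Cxcl10 (92346638 to 92348889) and Cxcl11 (92359544 to 92365485) are on the reverse strand. Cxcl12 is on chromosome 6 (117168535 to 117181367), Cx3cl1 on chromosome 8 (94772009 to 94782427), Cxcl16 on chromosome 11 (70453983 to 70459984) and Cxcl14 on chromosome 13 (56288643 to 56296551).

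Stretches of DNA ahead of the start sites are shown for Cxcl1, which differed most between the libraries, for its neighbour Cxcl2, for the interferon-induced Cxcl10, and for Cxcl12, which differed the other way. They are RefSeq sequences on GRCm38.p6, 5′ to 3′ on the strand of the gene, and all lie upstream of the annotated coding transcripts. Capitals mark matches, on either strand, to an NF-kB pattern (GGG and TTCC with any 3 bases between them) or to a pattern of the interferon-stimulated response element (ISRE, GAAA and GAAA with any 2 bases between them). Overlapping matches run together.
Cxcl1, chr5:90891141-90891229: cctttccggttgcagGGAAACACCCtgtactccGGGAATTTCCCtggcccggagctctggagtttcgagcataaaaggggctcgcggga
Cxcl2, chr5:90903787-90903870: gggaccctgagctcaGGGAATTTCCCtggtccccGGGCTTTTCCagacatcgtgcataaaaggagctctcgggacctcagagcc
Cxcl10, chr5:92348939-92349117: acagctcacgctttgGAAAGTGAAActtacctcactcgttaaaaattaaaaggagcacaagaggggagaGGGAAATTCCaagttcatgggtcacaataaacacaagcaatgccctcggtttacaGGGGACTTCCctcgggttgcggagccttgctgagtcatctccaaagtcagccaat
Cxcl12, chr6:117168415-117168534: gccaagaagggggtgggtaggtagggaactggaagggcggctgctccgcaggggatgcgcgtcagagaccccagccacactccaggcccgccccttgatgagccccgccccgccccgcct

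The upstream stretches of Cxcl1 and Cxcl2 share the run GGGAATTTCCCTGG, 14 bases and the longest they have in common. Its first 10 bases, which match the NF-kB pattern, start 71 bases before the RefSeq start of Cxcl1 and 97 bases before that of Cxcl2. Of 32851 mouse promoters, searched over the 250 bases before the start, 28 hold these 10 bases on either strand, or 0.0852%. Since the 10 bases were copied from Cxcl1 and Cxcl2, both hold them by construction, and nothing is read from this share. The looser NF-kB pattern, which includes them, occurs in 4.65% of promoters and, of the 7 genes of the set with an entry in the table (Cxcl1, Cxcl2, Cxcl9, Cxcl10, Cxcl12, Cxcl14 and Cx3cl1), in Cxcl1, Cxcl2 and Cxcl10. The ISRE pattern occurs in 2.98% of promoters and in those of Cxcl10 and Cxcl14. The 250 bases of Cxcl12, Cxcl9 and Cx3cl1 hold neither pattern. Those of Cxcl12 are 64.4% G and C, against a median of 52.4% for all promoters. Cx3cl1 (64.8%), Cxcl2 (60%), Cxcl14 (59.6%) and Cxcl1 (59.2%) are also above this median, and Cxcl10 (48%) and Cxcl9 (44.4%) are below it. Cxcl5, Cxcl11 and Cxcl16 have no entry.

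The messages of Cxcl1 and Cxcl2 also carry many ATTTA pentamers in their 3′ UTR, the element through which short-lived cytokine messages are bound by decay factors such as Zfp36. Cxcl1 has 7 in 592 nt, and 0.555% of 2342 genes with a 3′ UTR of like length (the shorter at least 0.8 times the longer) have at least as many. Cxcl2 has 11 in 1494 nt, a number reached by 0.806% of 3100 such genes. Cxcl5 has 5 in 1111 nt (13.5% of 3030 genes). Cxcl12 has 4 in 5188 nt, where genes of like length have a median of 9, and Cxcl14 has 0 in 1149 nt. Cxcl9 and Cxcl10 have 3 each, Cxcl16 has 2, and Cxcl11 and Cx3cl1 have 1 each, numbers reached by 30.9% or more of such genes. Each number is for the annotated coding transcript with the longest 3′ UTR of the gene. Cxcl2 and Cxcl12 also have shorter coding transcripts, and which one the cells expressed is not known here. Any link between ATTTA and the direction of a difference was not tested.

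Levels are given in FPKM (fragments per kilobase of transcript, scaled to library size), as deposited and summed over the rows of a symbol, so that genes can be compared per length. With 1 library per condition there is no spread between cultures to set a difference against, and no p-value was computed. From the low values, the HG+HBS library was estimated at about 14400000 fragments and the HG+PC-NVs library at about 12600000. Intervals are exact 95% intervals from the fragments so estimated. They cover counting error only, PCR copies are not independent molecules, and intervals of neighbouring genes are compared as a description.

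The endothelial label was checked against marker genes, and the data go against it. Of 12 endothelial markers, 5 reached 1 FPKM in either library, and the list summed to 36.4 FPKM with HBS and 29.4 FPKM with PC-NVs. Pecam1 was at 1.05 and 0.938 FPKM, Vwf at 0.158 and 0.128 FPKM and Cdh5 at 5.05 and 5.73 FPKM, and the highest of the list were Esam (17.4 and 11.7 FPKM) and Egfl7 (9.48 and 8.57 FPKM). All 8 fibroblast markers were above 1 FPKM in both libraries and summed to 2102 and 2426 FPKM, led by Dcn (623 and 1283 FPKM) and Thy1 (549 and 412 FPKM). The cells are therefore called the MCEC cultures, after the label.

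In HG+HBS, the levels were led by Cx3cl1 at 110.5 FPKM (interval 107 to 114) and Cxcl12 at 88.4 FPKM (84.7 to 92.2). Cxcl10 followed at 16.0 FPKM (13.9 to 18.3), then Cxcl16 at 11.7 (10.7 to 12.9) and Cxcl14 at 11.1 (9.63 to 12.7), whose intervals overlap each other. Cxcl9 at 0.756 FPKM (0.508 to 1.08), Cxcl5, Cxcl2, Cxcl1 and Cxcl11 were under 1 FPKM, and in this order each interval overlaps the next. In HG+PC-NVs, the order was led by Cxcl1 at 73.2 FPKM (67.8 to 78.9), followed by Cx3cl1 at 56.8 (54.4 to 59.2) and Cxcl10 at 40.8 (37.1 to 44.7). Cxcl12 at 31.3 (28.9 to 33.8) and Cxcl16 at 29.5 (27.6 to 31.5) overlap each other, as do Cxcl14 at 7.92 (6.60 to 9.43) and Cxcl5 at 7.45 (6.22 to 8.85). Cxcl2 at 4.43, Cxcl9 at 2.47 and Cxcl11 at 0.115 FPKM came last.

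**Figure D1:**
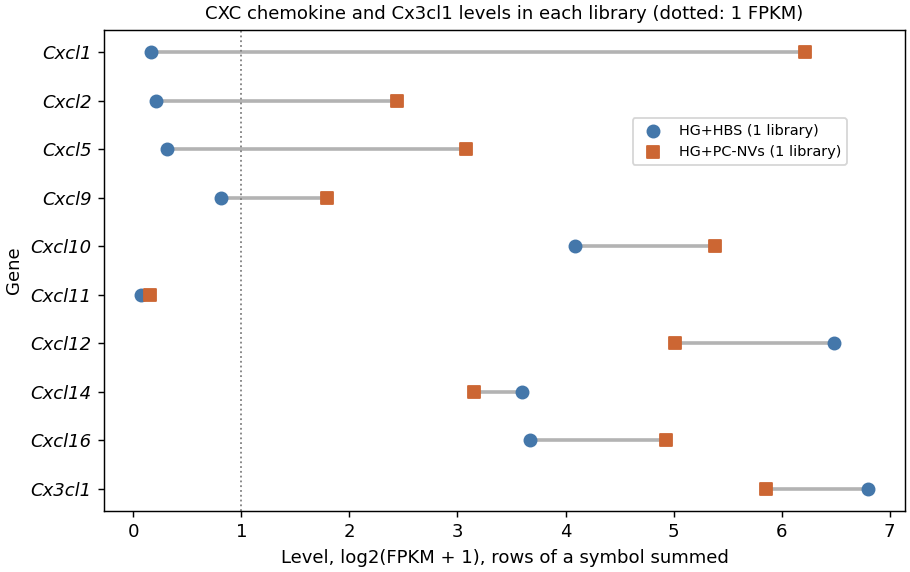
Level of each of the 10 chemokine genes on the log2(FPKM + 1) scale (x axis) in the HG+HBS library (circles) and the HG+PC-NVs library (squares), with a grey line between the values of a gene and a dotted line at 1 FPKM. Cxcl1 runs from 0.16 to 6.21, while Cxcl12, Cxcl14 and Cx3cl1 are the genes whose square lies left of the circle.

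The sum over the 10 genes was nearly the same in both libraries, 239 FPKM with HBS and 254 FPKM with PC-NVs, but its make-up was not. Cxcl1, Cxcl2 and Cxcl5 together made up 0.215% of the sum with HBS and 33.5% with PC-NVs. Cxcl12 and Cxcl14 made up 41.6% and 15.4%, and Cxcl16 and Cx3cl1 51.1% and 34.0%. The interferon-induced genes made up 7.04% and 17.1%.

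A gene was counted as higher or lower where FPKM + 1 differed more than 2-fold, among genes at 1 FPKM or more in at least one library. Of the 10 genes, 9 passed this level, all but Cxcl11. Cxcl1, Cxcl2, Cxcl5 and Cxcl9 passed it through HG+PC-NVs alone, where they were the higher, so their direction was fixed by the filter. With PC-NVs, 5 of the 9 were over 2-fold higher (Cxcl1, Cxcl2, Cxcl5, Cxcl10 and Cxcl16), beside 2.52% of all 12109 genes at this level. Cxcl12 was more than 2-fold lower, beside 0.867% of all genes. More than 4-fold higher were 3 (Cxcl1, Cxcl2 and Cxcl5), beside 0.619% of all genes, and 0 were more than 4-fold lower, beside 0.0578%. Since the set was chosen from this comparison, nothing is read from these shares. The median log2 ratio was 1.26 over the 9 genes and -0.01 over all genes at this level.

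**Figure D2:**
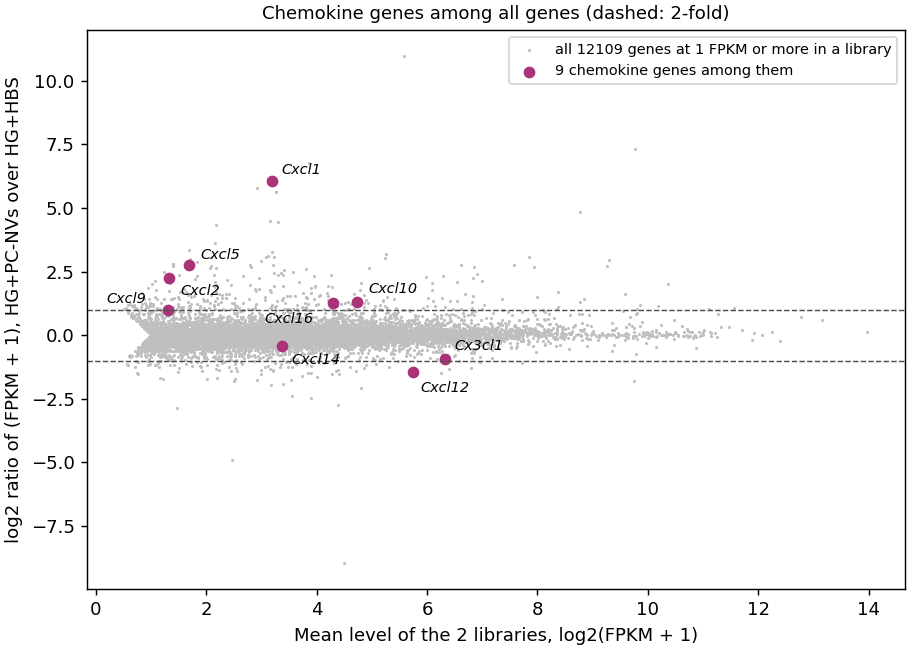
Each point is a gene at 1 FPKM or more in at least one library (12109 genes, grey), by its mean level in the 2 libraries (x axis, log2(FPKM + 1)) and its log2 ratio of HG+PC-NVs over HG+HBS (y axis), with dashed lines at 2-fold. The 9 chemokine genes that pass this level are labelled and lie between -1.47 (Cxcl12) and 6.05 (Cxcl1).

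Cxcl1, a neutrophil attractant also known as KC, was at 0.118 FPKM with HBS, from about 1.29 fragments, and 73.2 FPKM with PC-NVs, from about 691. The HG+HBS library thus held hardly any Cxcl1, and by level it ranked 14495 of all symbols there and 1126 in the other library. The FPKM ratio was 619, and with so few fragments in HG+HBS its counting interval ran from 131 to 11975. On the log2(FPKM + 1) scale, which understates differences of low genes, the ratio was 6.05. Of all genes at 1 FPKM or more, 99.96% had a lower ratio.

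Cxcl5, which in mouse is also known as LIX, was at 0.239 FPKM with HBS (about 4.76 fragments) and 7.45 FPKM with PC-NVs (about 129 fragments). Its FPKM ratio was 31.2 (counting interval 12.8 to 101), or 2.77 on the log2(FPKM + 1) scale. Cxcl2, also known as MIP-2, was at 0.157 FPKM (about 2.07 to 3.78 fragments, depending on which annotated transcript is counted) and 4.43 FPKM (50.6 to 92.5 fragments). This was a ratio of 28.2 (7.57 to 226), or 2.23 on the log2 scale. The intervals of Cxcl2 and Cxcl5 overlap, so that their order is not resolved at this depth, while that of Cxcl1 begins above the end of that of Cxcl5 and overlaps that of Cxcl2. Cxcl3, a further neutrophil attractant of the same cluster that is not among the 10 genes, was at 0.000257 and 0.292 FPKM. The transcripts of Cxcl2 and Cxcl3 share 61 stretches of 50 bases, 3.28% of those of Cxcl2, so a few reads may be placed in either gene. No such stretch is shared between Cxcl1 or Cxcl5 and the coding transcripts of any other gene.

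**Figure D3:**
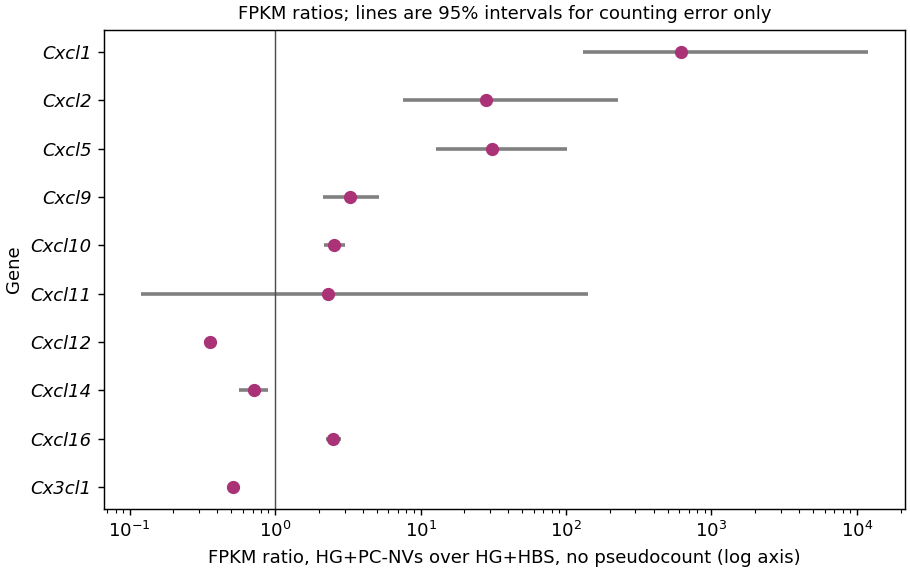
FPKM ratio of HG+PC-NVs over HG+HBS without a pseudocount for each of the 10 genes (points, log axis), with 95% intervals for counting error only (lines) and a vertical line at equal levels. The intervals of Cxcl1, Cxcl2 and Cxcl5 are wide and begin at 7.57 or more, those of Cxcl12, Cxcl14 and Cx3cl1 lie below 1, and only that of Cxcl11 spans 1.

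Of the interferon-induced ligands, Cxcl10 (IP-10) was the one with a sizeable level. It was at 16.0 FPKM with HBS and 40.8 FPKM with PC-NVs, from at least 208 and 457 fragments, a ratio of 2.55 (2.16 to 3.01). Cxcl9 (MIG) was at 0.756 and 2.47 FPKM, or about 29.4 and 83.7 fragments, with an FPKM ratio of 3.27 (2.13 to 5.16). Its log2(FPKM + 1) ratio of 0.98 lay just inside the 2-fold limit. Cxcl11 (I-TAC) was at 0.0494 and 0.115 FPKM, about 0.988 and 1.99 fragments, and no difference was detectable at this depth (interval of the ratio 0.119 to 143). Cxcl10 and Cxcl11 overlap Art3 on the opposite strand, which was at 1.30 and 1.11 FPKM. The library kit keeps strand, but whether strand was used in counting is not stated.

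Of 18 genes of the interferon pathway, all at 1 FPKM or more, 0 were more than 2-fold higher and 0 more than 2-fold lower, beside 2.52% and 0.867% of all genes, so that few would be called in a list of this size at those shares. Their median log2 ratio was 0.28, beside -0.01 over all genes, with 13 above 0 and 5 below. Irf7, a transcription factor that interferon itself induces, was at 140.3 and 241 FPKM (log2 ratio 0.78), and Ifit3, an antiviral effector, at 106 and 113 FPKM (0.08).

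Cxcl12 (SDF-1) was at 88.4 FPKM with HBS and 31.3 FPKM with PC-NVs, 2.83 times lower (counting interval 2.59 to 3.09), with a log2(FPKM + 1) ratio of -1.47. By level it ranked 866 with HBS and 2675 with PC-NVs. Of all genes at 1 FPKM or more, 0.239% had a lower ratio. In such a bulk library, fewer cells that express the gene and less RNA per cell cannot be told apart. The files list Cxcl12 in 3 rows and do not pair them with transcripts, of which GENCODE M21 has 3 coding ones, from 1878 to 5627 nt. The highest row was at 67.5 FPKM with HBS and 25.1 FPKM with PC-NVs, the middle one at 17.1 and 4.82 FPKM and the lowest at 3.77 and 1.38 FPKM. All 3 rows were thus lower in HG+PC-NVs, by 2.69, 3.55 and 2.73 times. The highest row held 76.4% of the gene's sum with HBS and 80.2% with PC-NVs.

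**Figure D4:**
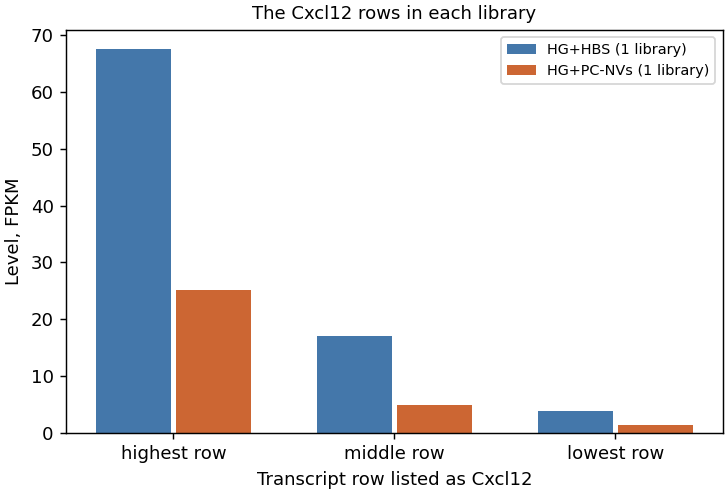
Level in FPKM (y axis, from 0) of the 3 transcript rows listed as Cxcl12, in HG+HBS and HG+PC-NVs, with 1 library per bar and no error bars. Each row is lower in HG+PC-NVs, the highest at 67.5 against 25.1 FPKM.

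Cx3cl1 (fractalkine), which binds Cx3cr1 on monocytes, was at 110.5 FPKM with HBS and 56.8 FPKM with PC-NVs, 1.95 times lower (1.85 to 2.05). Its log2 ratio of -0.95 lay just inside the 2-fold limit, and it passed this limit under quantile normalization and upper-quartile scaling. Cxcl14 was at 11.1 and 7.92 FPKM, 1.40 times lower (1.12 to 1.76), a log2 ratio of -0.44. Cxcl16, the other ligand with a membrane anchor, was higher where Cx3cl1 was lower, at 11.7 FPKM with HBS and 29.5 FPKM with PC-NVs, a ratio of 2.51 (2.24 to 2.82). Zmynd15, which overlaps Cxcl16 on the opposite strand, was at 1.02 and 2.94 FPKM.

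Receptors for these ligands were low in the cultures. Of 9 receptor genes, 2 reached 1 FPKM with HBS and 4 with PC-NVs. Cxcr4, the signalling receptor of Cxcl12, was at 2.74 and 1.82 FPKM (log2 ratio -0.41), and Ackr3, which takes up Cxcl12 without G-protein signalling, at 1.04 and 3.25 FPKM (1.06). Of the 4, Ackr3 alone was over 2-fold higher and 0 were lower, beside 2.52% and 0.867% of all genes. Cxcr3 and Ackr1 (0.639 and 1.75 FPKM) passed the level through HG+PC-NVs alone, so their direction was fixed by the filter. Cxcr2, the receptor of the neutrophil-attracting ligands, was at 0.359 and 0.391 FPKM, Cxcr3 at 0.291 and 1.24 FPKM, and Cx3cr1 at 0.0577 and 0.0445 FPKM. Of the 6 other CXC ligands, Pf4, a platelet and macrophage chemokine, was alone in reaching 1 FPKM, with 5.93 and 2.88 FPKM (-0.84).

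Of the 10 genes for proteins that process or bind chemokines, 9 were at 1 FPKM or more, 2 of them over 2-fold higher with PC-NVs and 0 lower, beside 2.52% and 0.867% of all genes. Their median log2 ratio was 0.43, beside -0.01 over all genes. The 2 were Mmp9, a gelatinase that trims several chemokines, at 3.10 and 13.5 FPKM (log2 ratio 1.83), and Tnfaip6, which binds chemokines and hyaluronan, at 5.88 and 15.6 FPKM (1.27). The sheddases of Cxcl16 and Cx3cl1 differed less, with Adam10 at 36.2 and 44.1 FPKM (0.28) and Adam17 at 22.9 and 31.3 FPKM (0.43). Mmp2 (449.9 and 435 FPKM) and Mmp14 (304 and 309 FPKM) had the highest levels of the list, with log2 ratios of -0.05 and 0.03.

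Of 18 genes of the NF-kB and IL-17 pathway, all at 1 FPKM or more, 6 were over 2-fold higher with PC-NVs and 0 lower, beside 2.52% and 0.867% of all genes. Their median log2 ratio was 0.63, with 17 of 18 above 0, beside -0.01 over all genes. Like the other lists, this one was chosen with earlier results of these data known, so nothing is read from these shares. Zc3h12a, an RNase that degrades inflammatory messages, was at 1.79 and 16.6 FPKM (2.66), and Nfkbiz, a nuclear cofactor of NF-kB, at 4.69 and 33.0 FPKM (2.58). Tnfaip3, a feedback inhibitor, was at 1.44 and 6.35 FPKM (1.59), Nfkbia, the inhibitor that holds NF-kB in the cytoplasm, at 5.68 and 18.4 FPKM (1.54), Relb at 11.2 FPKM with HBS (1.04) and Cebpb at 88.8 and 182 FPKM (1.03). Cebpd stood at 129 and 239 FPKM (0.89) and Rela, the main activating subunit, at 30.2 and 34.8 FPKM (0.20).

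**Figure D5:**
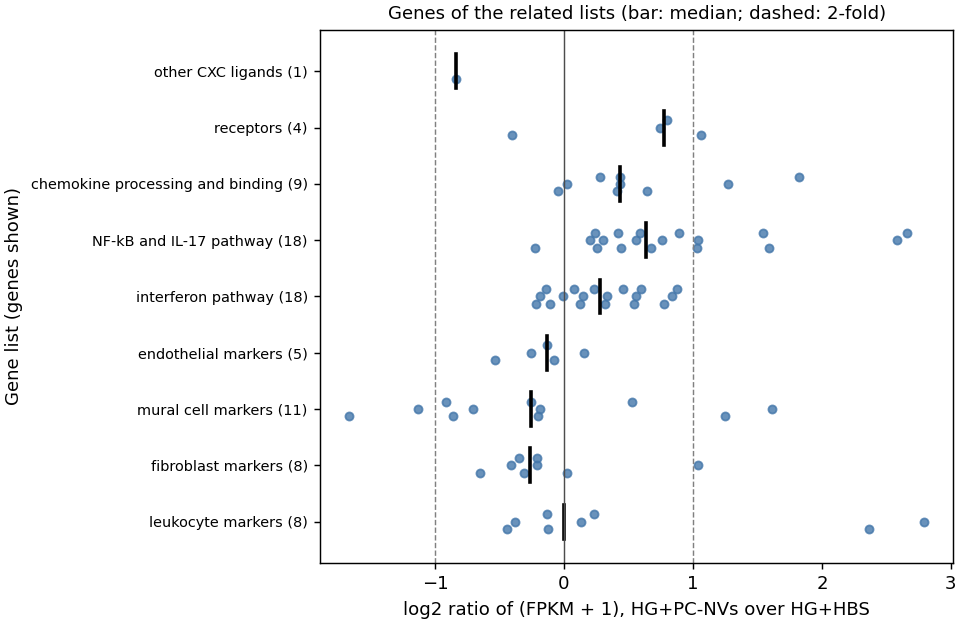
log2 ratio of FPKM + 1, HG+PC-NVs over HG+HBS (x axis), of each gene at 1 FPKM or more in at least one library (points) in 9 related lists (rows, with the number of genes), with black bars at the list medians and dashed lines at 2-fold. In the NF-kB and IL-17 list 17 of 18 points lie right of 0 and 6 are past 2-fold. In the interferon list 13 of 18 lie right of 0 and 0 are past 2-fold.

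Markers of other cell types were set beside these values, and their part in the chemokine differences was not tested. Of 12 leukocyte markers, 7 were at 1 FPKM or more with HBS and 8 with PC-NVs, and the list summed to 268 and 279 FPKM. Lyz2 (212 and 193 FPKM) and Cd68 (36.2 and 26.3 FPKM) had the highest mean levels of the list, and Ptprc, carried by all leukocytes, was at 1.44 and 1.67 FPKM. Adgre1 was at 7.44 and 42.5 FPKM (log2 ratio 2.37) and S100a9 at 0.00323 and 5.96 FPKM (2.79). Of the 8 at this level, these 2 were over 2-fold higher and 0 lower, beside 2.52% and 0.867% of all genes. S100a9 passed the level through HG+PC-NVs alone, so its direction was fixed by the filter. Cd3e and Nkg7 of lymphocytes were listed at 0 in both libraries, and Ly6g has no row. Of 12 mural cell markers, 11 were at 1 FPKM or more with HBS and 9 with PC-NVs, summing to 148 and 109 FPKM. Rgs5 (1.69 and 7.23 FPKM) and Kcnj8 (7.98 and 20.4 FPKM) were over 2-fold higher with PC-NVs, and Acta2 (27.6 and 8.02 FPKM) and Tagln (17.3 and 7.34 FPKM) more than 2-fold lower. These were 2 higher and 2 lower of 11, beside 2.52% and 0.867% of all genes. Pdgfrb (38.4 and 33.7 FPKM) and Anpep (26.7 and 13.7 FPKM) had the highest mean levels of that list. The median log2 ratio was -0.13 over the 5 endothelial markers at this level, -0.26 over the 8 fibroblast markers and -0.25 over the 11 mural ones. It was 0.002 over the 8 leukocyte markers, beside -0.01 over all genes.

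The genes with values most like those of Cxcl1 and Cxcl12 were sought by the Euclidean distance over the 2 log2(FPKM + 1) values, which with 2 libraries is only a likeness of level and ratio. Nearest to Cxcl1 were Snora65 (distance 0.11), a small nucleolar RNA of 130 nt, and the acute-phase genes Saa2 (0.31) and Saa1 (0.32). Snora65, at 0.0357 and 72.2 FPKM, is shorter than the length taken off transcripts to estimate fragments. How many fragments its values rest on could therefore not be estimated, and nothing is read from its place as nearest. Saa2 was at 0.356 and 66.7 FPKM and Saa1 at 0.359 and 66.2 FPKM, 2 closely related genes between which reads may be divided. Nearest to Cxcl12 were Mxra7 (0.43), Txnip (0.48) and Fxyd1 (0.49). Txnip, a glucose-responsive inhibitor of thioredoxin, was at 67.4 and 38.4 FPKM, Mxra7 at 72.1 and 39.1 FPKM and Fxyd1 at 62.6 and 30.4 FPKM, all with a log2 ratio nearer to 0 than that of Cxcl12.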

How the data were processed

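Poly(A) RNA of 1 MCEC library per condition was sequenced with a stranded kit. The authors trimmed adapters and bases of low quality, aligned reads with TopHat to mm10 (build and tool per the submitters' processing notes), and obtained read counts from BEDTools and FPKM from Cufflinks. The authors then normalized in R with edgeR, naming quantile normalization. Versions and annotation are not given in the sources used here. The authors deposited log2(normalized FPKM + 1) for 33299 rows, a scale read from the values (maximum 13.99).

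Values were converted back, summed over the rows of a symbol and compared as log2 ratios with a pseudocount of 1, with no further normalization, since the rule for the genes uses the values as deposited. After sorting, the values of both libraries are more than 0.05 apart in 2318 rows, which full quantile normalization between the libraries would have made equal, so this step was run as an alternative. Other alternatives were upper-quartile scaling, median centring, pseudocounts, the highest row, levels and fold limits.

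The worth of 1 fragment was the value of FPKM times effective length that most single-transcript genes share, with 195 nt (HG+HBS) and 205 nt (HG+PC-NVs) taken off the GENCODE M21 length. Of low genes up to 5 fragments, 74.0% and 75.0% lay within 0.1 of a whole number. Fragments of a chemokine gene use its shortest coding transcript over 900 nt. Intervals are exact (Clopper-Pearson for ratios, Poisson for levels), at 95%. The calculations were tested on simulated data.

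The genes and lists were chosen with earlier results of these data known. Named besides the 10 genes were list members past 2-fold, the 2 highest of each list, and the 3 nearest genes. The following were named outside this rule after their values were seen: Pecam1, Vwf, Cdh5, Cxcr2, Cxcr3, Cx3cr1, Ackr1, Adam10, Adam17, Rela, Ptprc, Cd3e, Nkg7, Ly6g, Art3 and Zmynd15. The promoter patterns and ATTTA were also chosen after the values were seen. The tools were scipy 1.17.1, pandas 2.3.3, numpy 2.4.6 and matplotlib 3.10.9 under Python 3.11.15.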

Additional observations from a re-analysis of the deposited data

How the results depend on the processing

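Of the chemokine genes, 5 were over 2-fold higher with PC-NVs. The count was 2 where 1 FPKM was required in both libraries, which removes Cxcl1, Cxcl2 and Cxcl5 by construction, and 3 with a fold change above 4. In the other alternatives it was 4 to 6, and the sixth was Cxcl9, with a pseudocount of 0.1 or 0.01 or a fold change above 1.5. The count of genes more than 2-fold lower was 1. It was 2, with Cx3cl1 added, under quantile normalization, under upper-quartile scaling and with a fold change above 1.5, and 0 with a fold change above 4. Upper-quartile scaling moved the median log2 ratio of all genes to -0.18. All 60 alternative log2 ratios of the 10 genes kept their direction. A pseudocount cannot change the direction, and taking the highest row can do so only for Cxcl11 and Cxcl12. Many of the 60 were thus fixed in advance. Of the 60, 47 stayed within the counting interval of the log2(FPKM + 1) ratio (5.57 to 6.21 for Cxcl1). The other 13 were 10 with a smaller pseudocount (Cxcl1, Cxcl2, Cxcl5, Cxcl9 and Cxcl11) and 3 with upper-quartile scaling (Cxcl12 at -1.66, Cxcl16 at 1.08, Cx3cl1 at -1.14). A smaller pseudocount changes the scale of the ratio but not of that interval. Those 10 therefore do not show a ratio beyond its counting error. Cxcl1 was at 9.16 with a pseudocount of 0.01 and at 5.95 under upper-quartile scaling, its extremes.

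No paired analysis was possible because each condition has a single library, which also leaves no replicate to omit. Depth limits Cxcl11 in both libraries and Cxcl1, Cxcl2 and Cxcl5 in HG+HBS.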
